A study of Mus musculus with 14 samples.

Results

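The 10 genes described here are the Notch receptors Notch1, Notch2 and Notch3, the ligands Jag1 and Dll1, the transcription factor gene Rbpj, the target genes Hes1 and Hey1, and Gxylt1 and Gxylt2, which encode the glucoside xylosyltransferases that modify Notch. They were taken by gene symbol, with 1 probe set per gene, the one with the highest mean. All 10 were measured on both array designs, out of 22180 genes on the first and 19938 on the second. Gxylt2 was chosen because of its level in Res 499 against control tumours, and the other 9 because they belong to the same pathway. The Res 499 against control values of all 10 are therefore given as a description, with no test.

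Expression was measured in tumours grown in C57BL/6 mice from B16-F10, a pigmented mouse melanoma line. The first array design held 7 tumours of the subline Res 499, 1 of the subline Res 177 and 4 control tumours, and the second held 1 Res 177 and 1 control tumour. Per the labels, mice with a tumour on each flank received 20 Gy to 1 tumour on day 8 and a CTLA4-blocking antibody (9H10) on days 5, 8 and 11, and the resistant sublines were recovered from unirradiated tumours that were resistant to it or grew back. Res 499 and Res 177 are labelled resistant, and the control cells sensitive. Each resistant subline is 1 cell line, so tumours of a subline do not sample resistance in general. Treatment of the measured tumours themselves is not stated, nor is their origin in separate mice, so p-values reflect only tumour-to-tumour spread, part of which may be technical.

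Notch receptors are activated when a ligand on a neighbouring cell, such as Jag1 or Dll1, binds their epidermal growth factor-like repeats. Cleavage by ADAM proteases and gamma-secretase then frees the intracellular domain, which enters the nucleus, joins RBPJ and Mastermind-like proteins, and turns on Hes and Hey genes. The repeats carry sugars that tune signalling. POGLUT1 adds glucose, GXYLT1 or GXYLT2 adds a xylose to that glucose, and XXYLT1 extends the chain with another xylose. In Drosophila, xylosylation of Notch limits signalling. In tumours, Notch genes are active in blood vessels and their mural cells as well as in cancer cells, and Notch signalling maintains the melanocyte lineage.

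The sequences upstream of Gxylt2, Notch1 and Notch2 are shown with short motifs marked. Gxylt2 lay above every first-design control in both resistant sublines. Notch1 and Notch2 lay high and low in nearly the same Res 499 tumours, a likeness that did not pass its test after adjustment. Any part of the motifs in these levels was not tested. All sequences come from RefSeq (GRCm38.p6), where 8 of the 10 genes have an entry. The stretches end before the first annotated base of the gene, and capitals mark the GC box GGGCGG, a word bound by Sp1-family factors, on either strand. Notch1 is chr2:26503823-26504072 on the minus strand, Notch2 is chr3:98013288-98013537 on the plus strand, and Gxylt2 is chr6:100704484-100704671 on the plus strand.
Notch1: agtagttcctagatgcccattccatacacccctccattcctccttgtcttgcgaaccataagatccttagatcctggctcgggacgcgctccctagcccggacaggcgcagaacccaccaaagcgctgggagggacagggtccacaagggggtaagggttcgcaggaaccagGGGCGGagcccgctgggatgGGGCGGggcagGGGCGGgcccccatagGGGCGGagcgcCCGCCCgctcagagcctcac
Notch2: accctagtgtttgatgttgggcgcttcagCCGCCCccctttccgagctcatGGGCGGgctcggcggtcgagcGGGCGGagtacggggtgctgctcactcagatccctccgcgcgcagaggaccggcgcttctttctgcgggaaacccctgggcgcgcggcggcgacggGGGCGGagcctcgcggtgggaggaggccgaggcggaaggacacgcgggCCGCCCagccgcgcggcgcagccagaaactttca
Gxylt2: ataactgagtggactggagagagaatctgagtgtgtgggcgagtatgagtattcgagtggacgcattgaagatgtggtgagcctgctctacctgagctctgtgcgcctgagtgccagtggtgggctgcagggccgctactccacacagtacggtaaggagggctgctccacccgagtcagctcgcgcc
The GC box occurred 5 times each in the 250 bases of Notch1 and Notch2, 5 times in the 250 bases before the listed start of Gxylt1, 4 times in those of Notch3, and 0 times in those of Gxylt2, Jag1, Dll1 and Rbpj. It was thus held by 4 of the 8 genes, which have 10 promoters, and by 32.7% of 32851 promoters of that length. A gene with several promoters has more chances to hold a word, so counts of genes and shares of promoters are unlike measures. Of the Gxylt1 window, only 93 bases precede its outermost annotated start, so its GC boxes fall inside the annotated gene. The core word TGGGAA, which RBPJ recognises, was searched on both strands, and it overlapped no GC box in these windows. It occurred in Gxylt2 and Rbpj among the 8 genes, and in 21.6% of all promoters. The Rbpj windows lie wholly inside the annotated gene, and so do the Rbpj sites. The site in Gxylt2 lay on the opposite strand, its first base 16 bases before the listed start, at chr6:100704706-100704735 with the core in capitals. It lies beyond the upstream stretch shown, since another annotated start of Gxylt2 precedes it, and so falls inside the annotated gene.
Gxylt2 site: ccgctcctcctcTTCCCAgtccacctccgc
A match is a word in the sequence, and no binding was measured in these tumours.

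Levels below are log2 expression values, so a difference of 1 is a change by 2-fold. Gxylt2 stood out among the 10 genes. In Res 499 tumours its level ran from 9.00 to 9.81 with a median of 9.46, in the Res 177 tumour of the first design it was 9.43, and in the control tumours it was 8.27, 7.24, 8.04 and 8.64. All 7 Res 499 tumours and the Res 177 tumour lay above every control. The mean was 9.42 ± 0.31 in Res 499 (SD, n = 7) and 8.05 ± 0.60 in control (SD, n = 4), a difference of 1.37 (SE 0.23) or 2.59-fold. This was the 16th largest positive difference among 16635 genes tested. The same comparison chose Gxylt2, so its rank and its place among the 10 genes describe the choice. The control tumours were the more variable group, and 99.2% of genes had a smaller SD among them. Without control replicate 3, the lowest, the difference was 1.10.

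The Res 177 tumour of the first design was set against the same 4 control tumours that entered the choice of Gxylt2, so this is not independent of that choice. It lay 1.38 (SE 0.42) above the control mean, or 2.60-fold. In the limma fit this did not pass the threshold (adjusted p = 0.757), and the lone Res 177 tumour was assumed to vary like the other groups. The direct difference between Res 499 and Res 177 was -0.01 (SE 0.40), also not past the threshold, and it uses the Res 499 levels that entered the choice. Gxylt2 on the second design, which shares no tumour with the first, was at 10.48 in the Res 177 tumour and at 8.74 in the control tumour, a difference of 1.74 or 3.34-fold, with no replicate to test it. It was the 52nd largest positive difference of 19938 genes between those arrays.

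Gxylt1, whose product adds the same xylose, did not follow Gxylt2. Its level ran from 8.70 to 8.99 (median 8.83) in Res 499 tumours, was 8.74 in the Res 177 tumour, and was 8.95, 8.92, 9.03 and 8.65 in control tumours. The groups overlapped, with a difference of -0.05 (SE 0.09) in Res 499. Gxylt1 on the second design was at 9.35 in the Res 177 and 9.71 in the control tumour. The other enzymes of the chain also lay close to control. Poglut1, which adds the glucose, differed by 0.07 (SE 0.07, adjusted p = 0.742 by limma) and Xxylt1, which adds the outer xylose, by 0.13 (SE 0.08, adjusted p = 0.502) in Res 499. Both were at nearly equal levels on the second design, with differences of -0.03 for Poglut1 and 0.16 for Xxylt1.

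**Figure D1:**
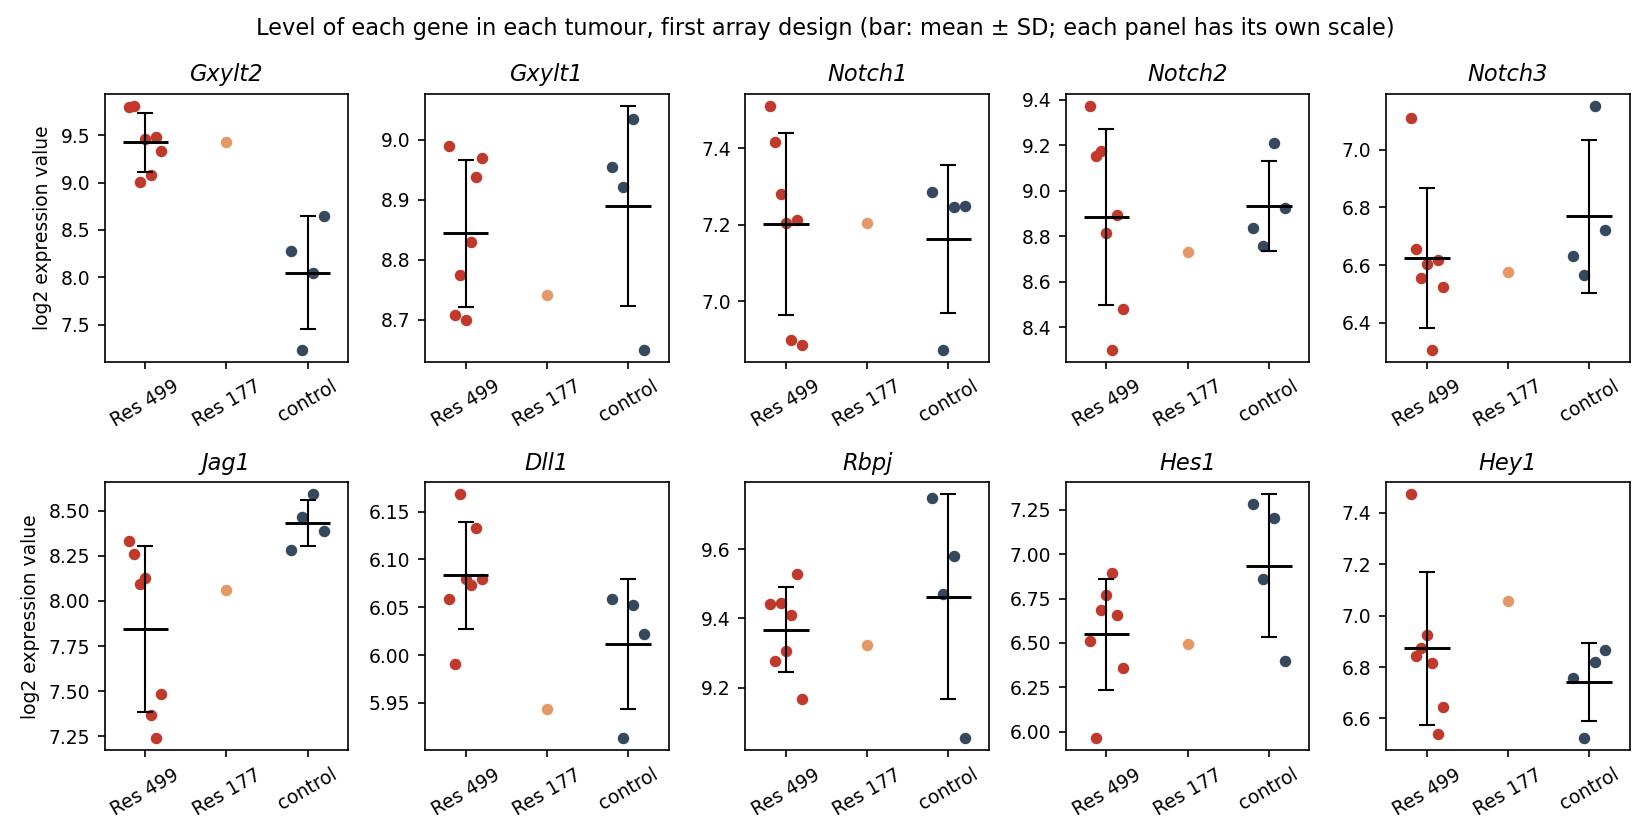
Log2 expression value of each gene (vertical axis, a scale of its own in each panel) in each tumour of the first array design: 7 Res 499, 1 Res 177 and 4 control tumours, with bars for the mean ± SD where a group has more than 1 tumour. Gxylt2, chosen by its level in Res 499 against control, is at 9.00 or above in every Res 499 tumour and at 8.64 or below in every control. Res 499 and control tumours overlap for the other 9 genes.

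Of the 10 genes, 1 (Gxylt2) was among the genes called in Res 499 against control (0.355% of all genes were called), and it was the only one whose Res 499 and control ranges did not overlap. Of all genes, 2.39% had ranges apart, 1.23% with Res 499 higher and 1.15% with Res 499 lower. This comparison chose Gxylt2, so its call and its ranges only describe the choice, and nothing is read from them. The call was absent in 9 of 21 alternatives, among them without control replicate 4, at a difference of 1.37. In Res 177 against control on the first design limma called 0 of the 10 (0.21% of all genes), with 1 at an unadjusted p under 0.05 (4.08% of all genes). Between Res 499 and Res 177 it called 0 (0.234% of all genes), with 0 at an unadjusted p under 0.05 (2.93% of all genes). The Res 177 tumour lay above the control range for Gxylt2 and Hey1 (22.5% of all genes) and below it for Jag1 and Notch2 (17.5%), so 4 of the 10 were outside it (39.9% of all genes). On the second design, 2 of the 10 differed by more than 1 on the log2 scale (1.27% of all genes), Gxylt2 upward and Hes1 downward.

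Among the receptors, Notch1 had levels from 6.89 to 7.51 (median 7.21) in Res 499 tumours, 7.20 in Res 177, and 7.28, 6.87, 7.25 and 7.25 in control tumours. Notch2 had levels from 8.30 to 9.37 (median 8.89) in Res 499, 8.73 in Res 177, and 8.83, 8.76, 9.21 and 8.92 in control. Res 499 and control tumours overlapped for both, with Res 499 differences of 0.04 (SE 0.13) for Notch1 and -0.05 (SE 0.19) for Notch2. The spread of Notch2 among Res 499 tumours was wide, at an SD of 0.39 that exceeded that of 94.0% of genes. Notch3, a receptor of vascular mural cells, had levels from 6.31 to 7.11 (median 6.61) in Res 499, 6.58 in Res 177, and 6.63, 6.57, 7.15 and 6.72 in control, a difference of -0.14 (SE 0.14). On the second design Res 177 minus control differences were 0.15 for Notch1, -0.02 for Notch2 and -0.05 for Notch3.

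The ligand Jag1 was at 8.33, 8.26, 8.09, 8.13, 7.37, 7.24 and 7.48 in Res 499 replicates 1 to 7, 8.06 in Res 177, and 8.29, 8.46, 8.59 and 8.39 in control tumours. All but Res 499 replicate 1 lay below every control, and replicates 5, 6 and 7 lay far below the other 4 Res 499 tumours. The mean was 7.84 ± 0.46 in Res 499 (SD, n = 7) and 8.43 ± 0.13 in control (SD, n = 4), a difference of -0.59 (SE 0.21). It was the 99th most negative of the 16635 genes. In Res 177 Jag1 differed by -0.37 (SE 0.37) on the first design, which did not pass limma's test, and by -0.11 on the second. The other ligand, Dll1, varied little, from 5.99 to 6.17 (median 6.08) in Res 499. It was at 5.94 in Res 177, and at 6.06, 5.91, 6.05 and 6.02 in control tumours. Dll1 lay low on the array, with 27.2% of tested genes at a smaller mean level, so its small spread says little about steadiness. Its difference of 0.07 (SE 0.06) in Res 499 was -0.07 at the other Dll1 probe set, so the probe sets disagreed in sign, and on the second design Dll1 differed by -0.00 (5.94 in Res 177 and 5.95 in control).

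Rbpj, which encodes the DNA-binding partner of the Notch intracellular domain, ranged from 9.17 to 9.53 (median 9.41) in Res 499, was 9.32 in Res 177, and was 9.75, 9.47, 9.58 and 9.06 in control tumours. Its groups overlapped, at a difference of -0.10 (SE 0.12). The target Hes1, a transcriptional repressor, had levels from 5.96 to 6.89 (median 6.66) in Res 499, 6.49 in Res 177, and 7.28, 6.86, 7.20 and 6.40 in control tumours. Control replicates 3 and 5, at 6.86 and 6.40, lay within the Res 499 range. The differences were -0.39 (SE 0.19) in Res 499 and -0.44 (SE 0.34) in Res 177, where limma did not call it. The Hes1 gap was wider on the second design, at 6.99 in the Res 177 tumour and 8.72 in the control tumour. That difference of -1.73, 3.32-fold lower, was the 10th most negative of 19938 genes, again with 1 array on each side.

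Hey1, a target gene prominent in endothelium, had differences of the opposite sign to Hes1 on the first design. It ranged from 6.54 to 7.47 (median 6.84) in Res 499, was 7.06 in Res 177, and was 6.76, 6.52, 6.82 and 6.87 in control tumours. The differences were 0.13 (SE 0.15) in Res 499 and 0.31 (SE 0.26) in Res 177, the Res 177 one not past limma's test, and -0.19 for Res 177 on the second design. With leukocyte markers as a covariate the Res 499 difference of Hey1 was -0.01, and without Res 499 replicate 1 it was 0.03, so the value rests on that tumour. Without control replicate 3 it was 0.06. None of the further target genes passed the test in Res 499. Nrarp, a feedback inhibitor, differed by 0.15 (SE 0.07), Heyl by 0.12 (SE 0.07) and Hey2 by -0.22 (SE 0.16), with adjusted p-values of 0.420, 0.525 and 0.616 by limma.

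**Figure D2:**
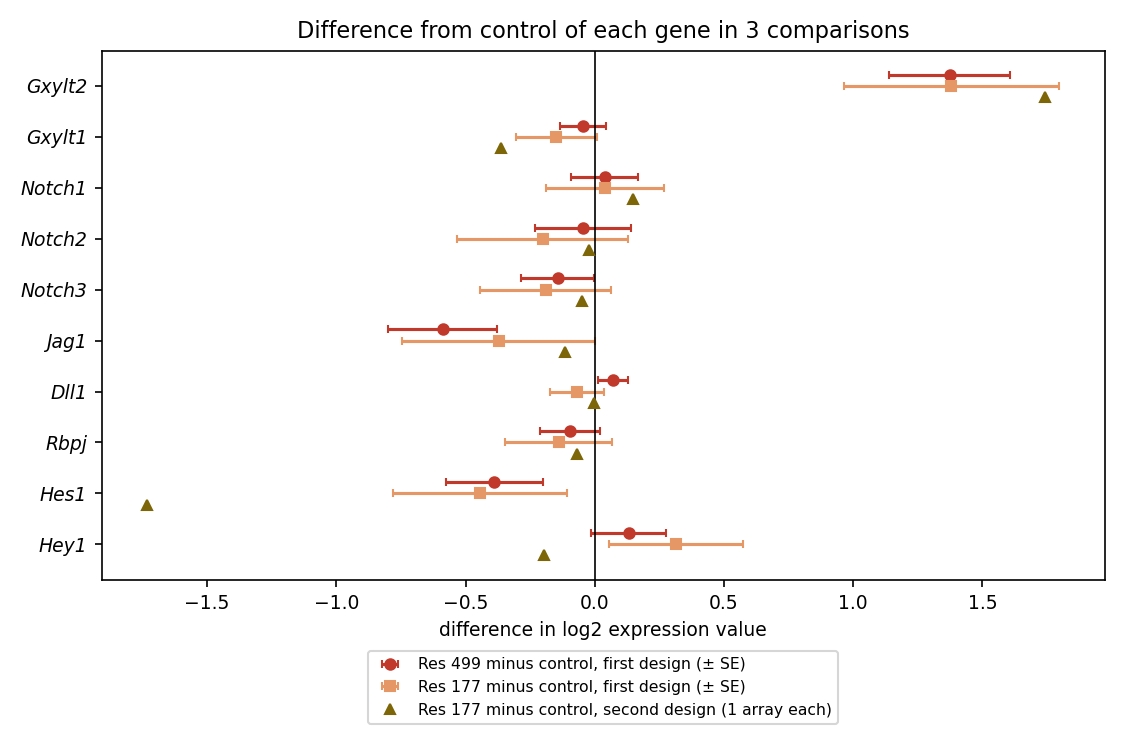
Difference in log2 expression value from control (horizontal axis) for each gene in Res 499 on the first design (circles, ± SE, 7 against 4 tumours), in Res 177 on the first design (squares, ± SE, 1 against 4) and in Res 177 on the second design (triangles, 1 array each, no error). Gxylt2 lies between 1.37 and 1.74 in all 3, and Hes1 lies at -1.73 on the second design against -0.39 and -0.44 on the first. The first-design comparisons share their 4 control tumours.

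Beyond these genes, 58 other Notch pathway genes were listed by role, of which 54 were on the first design and 53 were tested. The other 5 entered no test on the first design. None of the 53 was called by limma in Res 499 against control (0.355% of all genes), and 7 had an unadjusted p under 0.05 (13%). The median difference of the 53 was -0.0029, against 0.0053 over all genes. In Res 177 limma called 0 of the 53 and 2 had an unadjusted p under 0.05 (4.08% of all genes). Between the sublines it called 0, with 1 at an unadjusted p under 0.05 (2.93% of all genes). On the second design 0 of 55 differed by more than 1 on the log2 scale (1.27% of all genes). The shares of all genes called in the other first-design comparisons are given above. At shares this low, a count of 0 among so few genes says little about them.

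The largest positive differences in Res 499 were those of Aph1c at 0.57 (SE 0.18, adjusted p = 0.190), Lfng at 0.47 (SE 0.17, adjusted p = 0.249) and Eogt at 0.38 (SE 0.21, adjusted p = 0.484), by limma. Aph1c encodes a gamma-secretase subunit, and its close copy Aph1b can share probe sequence with it, so its value is uncertain. Lfng and Eogt encode enzymes that add N-acetylglucosamine to Notch, Lfng onto O-linked fucose and Eogt directly onto the repeats. Aph1c lay above every control in 6 of 7 Res 499 tumours, Lfng in 5 and Eogt in 3. In Res 177 their differences were 0.72 (SE 0.31), 0.57 (SE 0.30) and 0.46 (SE 0.38) on the first design, and 0.71, 0.46 and 0.48 on the second. None of the 3 was called in Res 177.

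The most negative were Maml3 at -0.40 (SE 0.11, adjusted p = 0.151), Ep300 at -0.33 (SE 0.20, adjusted p = 0.528) and Itch at -0.27 (SE 0.11, adjusted p = 0.326), by limma. Maml3 is a Mastermind-like coactivator, Ep300 the acetyltransferase it recruits, and Itch a ubiquitin ligase that targets Notch. Nuclear factors other than Rbpj had negative differences in 10 of 12 in Res 499 (median -0.20) and in 9 of 12 in Res 177 (median -0.16), with 0 called in either. Over all genes 51.7% of differences in Res 499 and 53.3% in Res 177 were positive. These comparisons share their control tumours. Res 177 minus control differences of the nuclear factors on the second design were negative in 8 of 12 (median -0.06). Positive differences in Res 499 were found in 6 of 9 glycosylation genes, 6 of 9 proteolysis genes, 6 of 13 trafficking genes, 3 of 4 ligands and 2 of 5 targets. Ep300 was at 8.96 and 9.42 in Res 499 replicates 5 and 7, at 9.73 to 10.18 in the other 5 Res 499 tumours, and at 10.03 to 10.19 in control tumours. Mfng and Rfng, the other Fringe genes, differed by -0.21 (SE 0.09, adjusted p = 0.343) and -0.13 (SE 0.07, adjusted p = 0.481) in Res 499, and Mfng by -0.66 on the second design. Pofut1, the O-fucosyltransferase, differed by 0.03 (SE 0.07, adjusted p = 0.914). The vascular receptor Notch4 differed by 0.15 (SE 0.15, adjusted p = 0.734), the endothelial ligand Dll4 by 0.14 (SE 0.11, adjusted p = 0.641) and the ligand Jag2 by 0.002 (SE 0.075, adjusted p = 0.994).

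**Figure D3:**
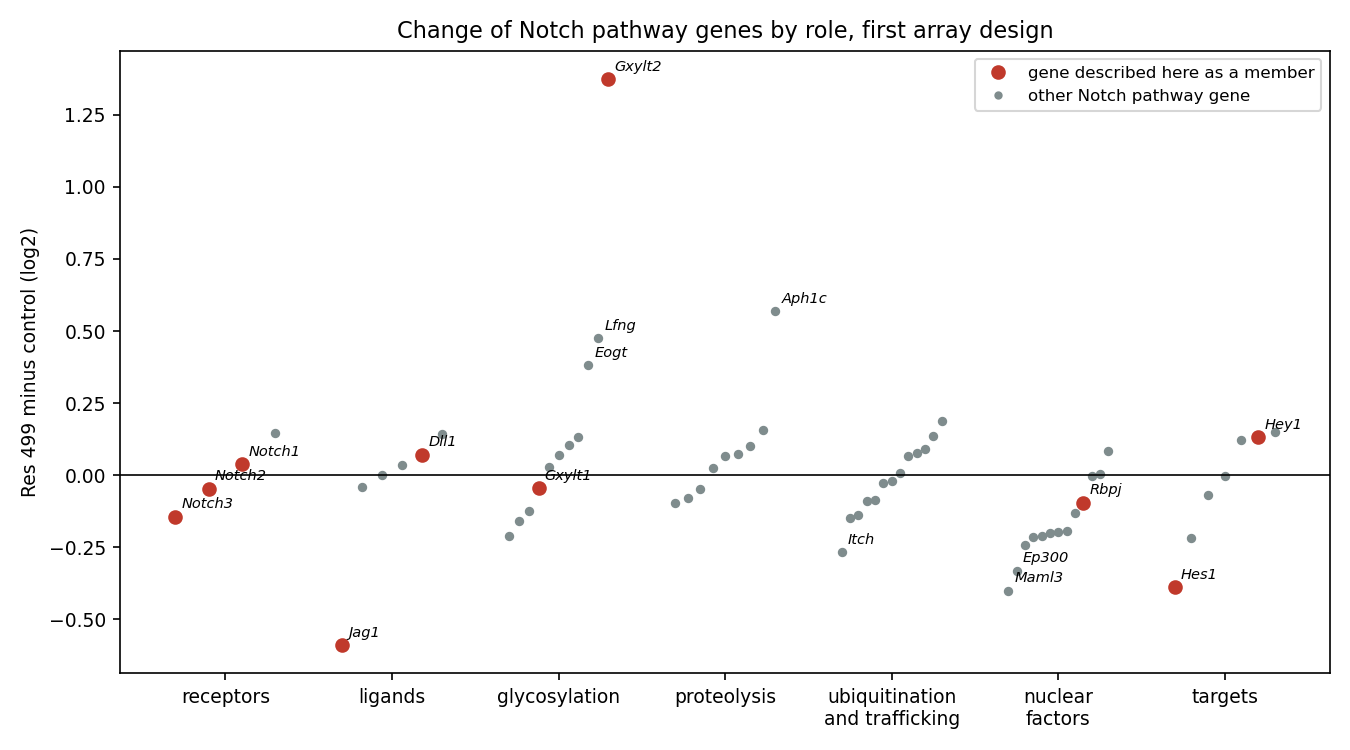
Res 499 minus control difference in log2 expression value (vertical axis, first array design) of each tested Notch pathway gene, grouped by role along the horizontal axis. Larger points are the 10 genes described here and smaller points the other 53. Gxylt2 is highest at 1.37, the next being Aph1c at 0.57, and Jag1 is lowest at -0.59. This comparison chose Gxylt2, so its place above the others describes the choice.

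Within Res 499, Notch1 and Notch2 were high and low in nearly the same tumours. Replicates 1, 2 and 3 had the highest Notch2 levels, at 9.37, 9.15 and 9.18, and the highest Notch1 levels, at 7.51, 7.42 and 7.28. Replicates 5 and 7 had the lowest, at 8.30 and 8.48 for Notch2 and 6.90 and 6.89 for Notch1. Over the 7 tumours Notch1 and Notch2 had a Pearson r of 0.97 (exact permutation p = 0.00139, adjusted p = 0.0625 over 45 pairs of genes) and a Spearman rho of 0.93 (exact permutation p = 0.00675, adjusted p = 0.268). This set of pairs was added after the levels had been seen. Without the 2 tumours farthest from the Notch1 median, r was 0.90. None of the 45 pairs passed after adjustment, and 6 had an unadjusted exact permutation p under 0.05.

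Markers of blood vessels differed between the same tumours. The mean of 10 endothelial markers (Pecam1, Cdh5, Kdr and others, all above the limit for dim genes) was 8.31, 8.17 and 8.32 in Res 499 replicates 1, 2 and 3, and 7.82, 7.70, 7.63 and 7.66 in replicates 4 to 7. It was 7.80 in Res 177, and 8.04, 7.72, 7.82 and 7.71 in control tumours. Since the Res 499 tumours fell into 2 sets by this mean, no pooled correlation with it is given. The 3 tumours of the higher set also had the highest Notch1 and Notch2. Crebbp, a nuclear factor gene, was also highest there, at 10.23, 10.37 and 10.14, and lowest in replicates 5 and 7, at 9.21 and 9.52. Snw1, another nuclear factor gene, was instead highest in replicate 5, at 10.16. Replicate 6 had the lowest endothelial mean but the median Notch2 level, at 8.89. Crebbp and Snw1 are examples outside the rule for naming genes, and nothing is read from them about vessel content, whose part was not tested. Control replicates 2, 3, 4 and 5 had Jag1 levels of 8.29, 8.46, 8.59 and 8.39 at endothelial means of 8.04, 7.72, 7.82 and 7.71. With the endothelial mean as a covariate the Res 499 difference was -0.72 (SE 0.15) for Jag1 and 1.33 (SE 0.24) for Gxylt2. That fit assumed 1 slope across all tumours despite the 2 sets, so its values are a description only.

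Mural cell markers (Rgs5, Pdgfrb and others, 8 in all) averaged 7.47 to 8.06 in Res 499, 7.77 in Res 177 and 7.60 to 8.02 in control tumours. Within Res 499 they had a Pearson r of 0.85 with Notch2 (exact permutation p = 0.0175, adjusted p = 0.269 over 50 pairs of genes and marker lists) and a Spearman rho of 0.89 (exact permutation p = 0.0123, adjusted p = 0.308). For Notch1 r was 0.81 (exact permutation p = 0.0312, adjusted p = 0.269) and rho 0.75 (exact permutation p = 0.0663, adjusted p = 0.548), and for Notch3 r was 0.75 (exact permutation p = 0.0244, adjusted p = 0.269) and rho 0.68 (exact permutation p = 0.110, adjusted p = 0.548). Without the 2 tumours farthest from the median, r was 0.39 for Notch2, 0.18 for Notch1 and 0.58 for Notch3, so the Notch1 and Notch2 values rest on those tumours. The part of vessel and mural content in the receptor and Jag1 levels was not tested.

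**Figure D4:**
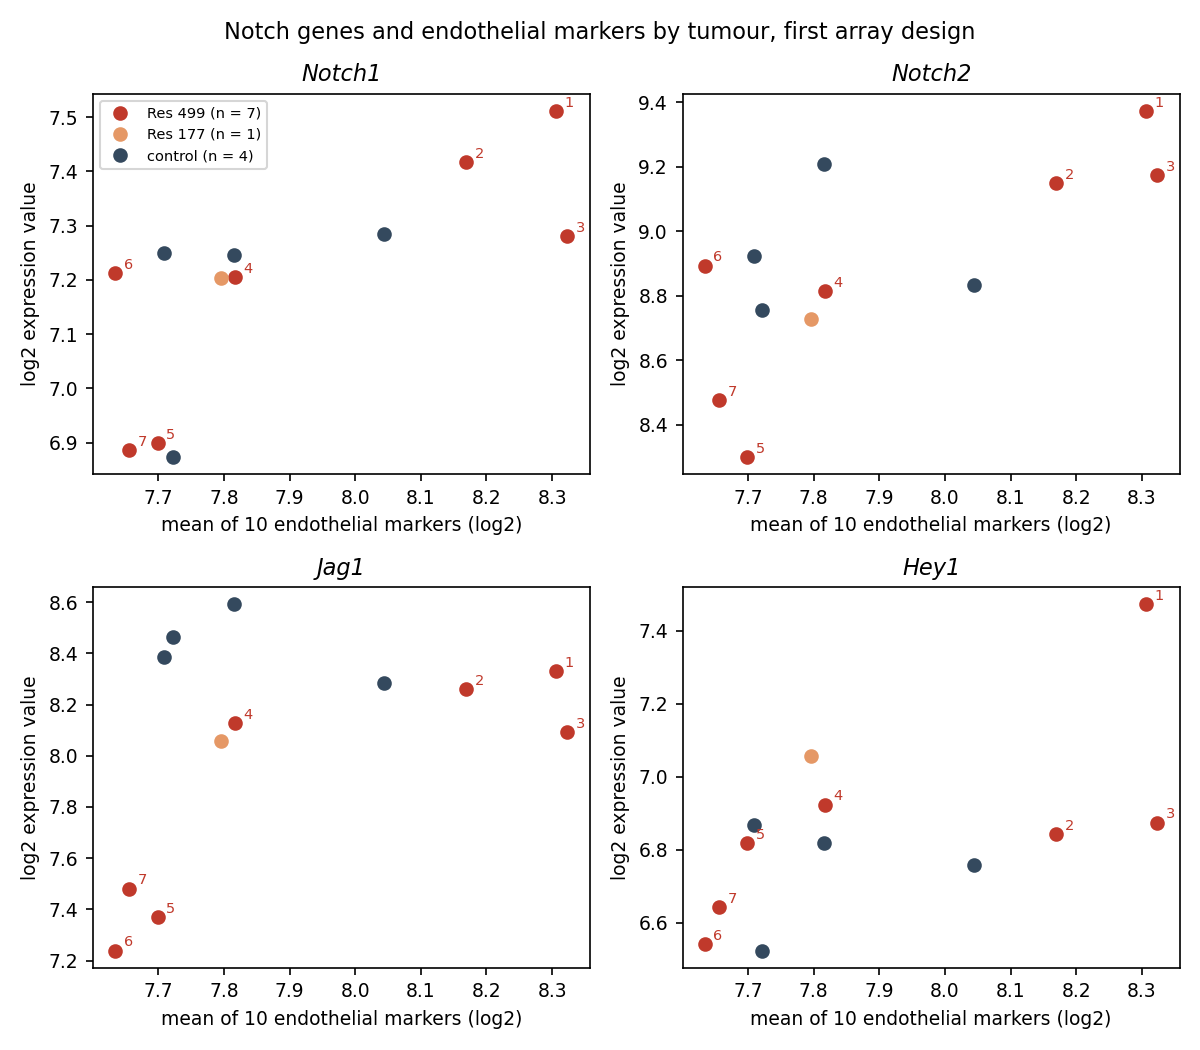
Log2 expression value of Notch1, Notch2, Jag1 and Hey1 (vertical axes) against the mean log2 value of 10 endothelial markers (horizontal axes) in the 12 tumours of the first design, with Res 499 replicates numbered. Res 499 replicates 1, 2 and 3 lie at the right with high Notch1 and Notch2. At an endothelial mean of 7.82 Jag1 is at 8.13 in Res 499 replicate 4 and at 8.59 in control replicate 4. Control replicate 2, at an endothelial mean of 8.04, has Jag1 at 8.29, below Res 499 replicate 1 at 8.33.

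In bulk tumour RNA, fewer cells of a type and less RNA per cell cannot be told apart. Leukocyte markers (Ptprc, Cd53, Laptm5, Coro1a and Cd52) had means above control in Res 499 for all 5 of 5 genes, none of them called, with list means from 5.87 to 7.96 in Res 499 tumours, 7.27 in Res 177, and 6.09 to 6.48 in control tumours. The Res 499 tumours fell into 2 sets by this mean too, so no pooled correlation with it is given. Replicates 1, 2, 3 and 5 had leukocyte means of 7.53, 7.93, 7.96 and 7.64 and Gxylt2 levels of 9.80, 9.81, 9.00 and 9.08. Replicates 4, 6 and 7 had leukocyte means of 6.55, 6.45 and 5.87 and Gxylt2 levels of 9.46, 9.48 and 9.33, within the span of the others. With leukocyte markers as a covariate the Gxylt2 difference was 1.33 (SE 0.29), but Gxylt2 was then no longer among the genes called. That fit, too, assumed 1 slope across all tumours despite the 2 sets. Keratinocyte markers averaged 8.14 in Res 177, 5.17 to 5.40 in Res 499 and 5.13 to 5.38 in control tumours of the first design, and 7.25 in Res 177 and 5.99 in control on the second. Leukocyte markers on the second design averaged 8.06 in Res 177 and 6.72 in control. The part of leukocyte content in the Hes1 difference there was not tested. Nor was the part of keratinocyte content in the Res 177 differences of any of the 10 genes, Gxylt2 among them, on either design.

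Melanocyte markers, which label the tumour cells, were all above the limit for dim genes and averaged 12.37 to 12.76 in Res 499, 12.52 in Res 177 and 12.50 to 12.56 in control tumours. Within Res 499 Hes1 ran against them, from 5.96 in replicate 2, where they were highest, to 6.89 in replicate 5, where they were lowest. Pearson r was -0.94 (exact permutation p = 0.00198, adjusted p = 0.0992 over 50 pairs of genes and marker lists) and Spearman rho -0.89 (exact permutation p = 0.0123, adjusted p = 0.308), and r was -0.78 without the 2 tumours farthest from the median. Gxylt2 and the melanocyte markers had a Pearson r of 0.72 (exact permutation p = 0.0613, adjusted p = 0.341) and a Spearman rho of 0.71 (exact permutation p = 0.0881, adjusted p = 0.548), with r = 0.41 without the 2 farthest tumours. None of the 50 pairs passed after adjustment, and 8 had an unadjusted exact permutation p under 0.05 for Pearson's r. These were Hes1 with the melanocyte mean, the 3 mural pairs, and Notch1, Notch2, Jag1 and Hey1 with the endothelial mean. The endothelial mean split the Res 499 tumours into 2 sets, so nothing is read from the endothelial pairs.

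Across the 12 tumours of the first design, the genes whose levels were most like Gxylt2 were Sptlc2, a subunit gene of serine palmitoyltransferase, at a Pearson r of 0.93, the semaphorin receptor gene Plxnc1 at 0.93, Dkk3 at 0.92, the kinase gene Tec at 0.91 and Zfand3 at 0.91. The most opposite were Tmem59l at -0.94 and the diacylglycerol kinase gene Dgki at -0.92. These values include the difference between groups and describe likeness in level only. On the second design, which did not enter them, Plxnc1 differed by 0.89, Sptlc2 by 0.15, Tec by 0.17, Zfand3 by 0.06 and Dkk3 by -0.09, while Tmem59l and Dgki differed by -0.53 and -0.46. For the other 9 genes the closest genes were Galnt11 for Gxylt1 (0.87), the endothelial receptor gene Robo4 for Notch1 (0.95), Hnrnpu for Notch2 (0.97), Tarbp1 for Notch3 (0.93), Prr12 for Jag1 (0.94), Vldlr for Dll1 (0.86), Eif5 for Rbpj (0.87), Smox for Hes1 (0.90) and Reep4 for Hey1 (0.93).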

How the data were processed

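Total RNA of 14 tumours was hybridised to Affymetrix whole-transcript arrays of 2 designs. The deposited data are log2 expression values, which the authors obtained by RMA with oligo, per the submitters' processing notes. RMA subtracts background, applies quantile normalization and combines the probes of each set. Tool versions and genome build are not given in the sources here, and the log2 scale was inferred from the values. The designs were normalized separately and never pooled.

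Only probe sets that the platform annotation gives 1 gene symbol were used. The 5545 genes with the lowest 25% of means were left out. The other 16635, the 10 genes among them, were fitted with limma 3.58.1 in R 4.3.3 (lmFit and eBayes, 3 groups, Benjamini-Hochberg adjustment, threshold 0.05), and differences are its estimates. There were 9 residual degrees of freedom. Arrays have no sequencing depth, so precision rests on the tumour numbers; first-design array medians were 5.70 to 5.80. Correlations used all 5040 pairings of the 7 Res 499 tumours, two-sided, with a smallest possible p of 1.98e-04. Replicate numbers follow deposited order and only name tumours. The fit was tested on simulated data.

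The genes and lists were chosen with earlier results of these data known. Other pathway genes named are any called in a comparison (0 were), 12 named whatever their values, and the 3 largest differences each way. Crebbp and Snw1, given beside the endothelial markers, are examples outside this rule. Genes alike in level are the 5 highest and 2 lowest correlations for Gxylt2 and the highest for each other gene. Alternatives covered the filter, probe set choice, normalization, prior, array weights, threshold, marker covariates and leaving out each array.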

Additional observations from a re-analysis of the deposited data

Results flagged for a closer look

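Of 54 gene and group combinations examined for a tumour apart from the rest of its group, 3 were found. Chance gives about 1 in 20, so a count of 3 is near what chance gives, and the tumours are only listed. Notch1 was at 6.87 in control replicate 3, against 7.25 to 7.28 in the other controls. Hey1 was at 7.47 in Res 499 replicate 1, against 6.54 to 6.92 in the other 6 Res 499 tumours. Itch was at 9.40 in control replicate 5, against 9.79 to 9.83 in the other controls.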

How the results depend on the processing

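The difference of Gxylt2 in Res 499 against control ran from 1.10 (without control replicate 3) to 1.57 (without control replicate 5) over 21 alternatives. That comparison chose the gene, so these values describe it and are no sign of stability. It was not called without control replicates 2, 3 or 4 or Res 499 replicates 1, 3, 4, 6 or 7, each omitted alone, at differences of 1.10 to 1.45, or with leukocyte markers as a covariate, at 1.33. In Res 177 on the first design it ran from 1.11 to 1.58 over 20 alternatives and passed the test in 0. Jag1 ran from -0.82 to -0.49 and Hes1 from -0.57 to -0.27 in Res 499, while the sign held in 17 of 21 alternatives for Notch1, 18 for Notch2, 19 for Gxylt1 and 20 for Hey1. On the second design the 2 genes past 1 on the log2 scale were 2 under each of 3 alternatives.

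The number of genes called in Res 499 against control was 59, and it was 356 with array weights, 27 with leukocyte markers as a covariate and 229 at an adjusted p under 0.1; leaving out 1 tumour gave between 6 (control replicate 4 omitted) and 196 (Res 499 replicate 2 omitted). The count in Res 177 against control was 35, but 101 with no filter on dim genes and 2 when the dimmest 50% were dropped, and 32 to 37 with 1 tumour left out. Between Res 499 and Res 177 it was 39, but 113 and 2 under these filters, and 33 to 43 with 1 tumour left out. Of the 53 other Notch pathway genes 1, Aph1c, was called with array weights and without Res 499 replicate 5, so the count with 1 tumour left out ran from 0 to 1. The cause of these shifts was not tested. Counts among the 10 genes were 0 for Res 177 against control and for Res 499 against Res 177 under every alternative run. No paired analysis was possible because the labels give no replicate numbers. No read depth exists for arrays, and a single Res 177 tumour per design limits every statement on that subline.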
